A study of Caenorhabditis elegans with 12 samples.

Results

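Mitochondria translate the few proteins encoded by their own genome, which are subunits of the respiratory chain and ATP synthase, on a ribosome of their own. All proteins of this mitochondrial ribosome are encoded in the nucleus, made in the cytoplasm and imported. In *C. elegans* they carry the names *mrpl-* for the large subunit, where peptide bonds form, and *mrps-* for the small subunit, where the mRNA is decoded. The genes were taken as all probe sets whose annotation gives a single gene symbol starting with *mrpl-* or *mrps-*. That rule found 65 probe sets of 22548 that are not controls, and 59 genes of 17118 with a probe set of their own. Of the genes, 34 encode large subunit and 25 small subunit proteins, and 5 genes (*mrpl-4*, *mrpl-38*, *mrpl-44*, *mrps-16* and *mrps-28*) have several probe sets. All 59 were found in the RefSeq gene table, which lists 71 such symbols, so 12 further genes have no probe set of their own here.

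The samples were early *C. elegans* embryos in which *hlh-1*, the single nematode relative of the vertebrate myogenic factors, could be induced from a transgene with a heat shock promoter. Each of the 12 arrays was hybridized with RNA of about 80 embryos, amplified by 20 cycles of PCR. The 1-cell and 2-cell stage is that of the starting embryos, and those sampled at 2, 4 and 6 h were older. There were 3 independent samples, labeled A, B and C, at 0 h, before the heat pulse, and at 2, 4 and 6 h after the pulse, which was 30 min at 34°C and followed an incubation of 60 min. The methods describe most cells of such embryos as turned toward muscle, and wild-type embryos that had the pulse without the transgene were not analysed here. Against 0 h, HLH-1, heat and embryonic age therefore cannot be told apart, and in whole embryos fewer cells of a type and less RNA per cell cannot be told apart either.

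The induced gene behaved as labeled, with *hlh-1* signals of 199, 348 and 196 at 0 h and of 3684, 4023 and 2802 at 2 h. Replicate arrays correlated with r from 0.835 to 0.884 over the tested probe sets. The signals of 10 body wall muscle markers summed to 831.5 to 2588 at 0 h and to 183600 to 247300 at 6 h, and all 10 were raised at 6 h. Over the same interval, 10 maternal and germ line markers went from 35780 to 42760 down to 815.3 to 6369, with 7 lowered. The summed signal of the 8 intestine markers went from 32880 to 42840 down to 1607 to 1890, with 3 lowered and 1 raised. Their median log2 change was 0.08, with 4 higher and 4 lower at 6 h. Of 10 neuron markers 3 were raised, of 6 pharyngeal muscle markers 2 were raised and 1 lowered, of 7 epidermis markers 2 were raised and 1 lowered, and of 5 tested heat shock genes (of 8 listed) 2 were raised. Among all tested probe sets, 21.7% were raised and 15.6% lowered at 6 h. The part of these marker shifts in the results below was not tested.

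The mitochondrial ribosomal protein genes rose after the pulse. A call required a limma adjusted p under 0.05 and a change of at least 1.7-fold, and 64 of the 65 probe sets were bright enough to be tested (signal above 69.7 in at least 3 arrays). At 2 h against 0 h, 45 of the 64 were raised and 1 was lowered, where 15.5% and 9.55% of all tested probe sets were raised and lowered. With quantile normalization 29 of the 64 were raised at 2 h, beside 13.3% of all tested. At 4 h the counts were 51 raised and 1 lowered, against 17.1% and 11.9% overall. At 6 h they were 48 raised and 1 lowered, against 21.7% and 15.6% overall. These comparisons share the 0 h arrays and are not independent of each other.

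The median log2 change of the 64 probe sets was 1.13 at 2 h, 1.68 at 4 h and 1.58 at 6 h. Over all 18264 tested probe sets it was 0.11, 0.16 and 0.31. All 3 later signals lay above all 3 at 0 h for 50 probe sets at 2 h, 55 at 4 h and 52 at 6 h, where this held for 23.8%, 24.3% and 28.2% of all tested probe sets. The members are brighter than most probe sets. Among the 2842 tested probe sets within the middle range of the members' brightness, 35.4%, 36.6% and 35.2% were raised at 2, 4 and 6 h. The filter bore on few members: 51 of the 64 were above 69.7 on all 12 arrays, 4 had no 0 h array above it and 8 had 1 or 2 of 3.

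**Figure D1:**
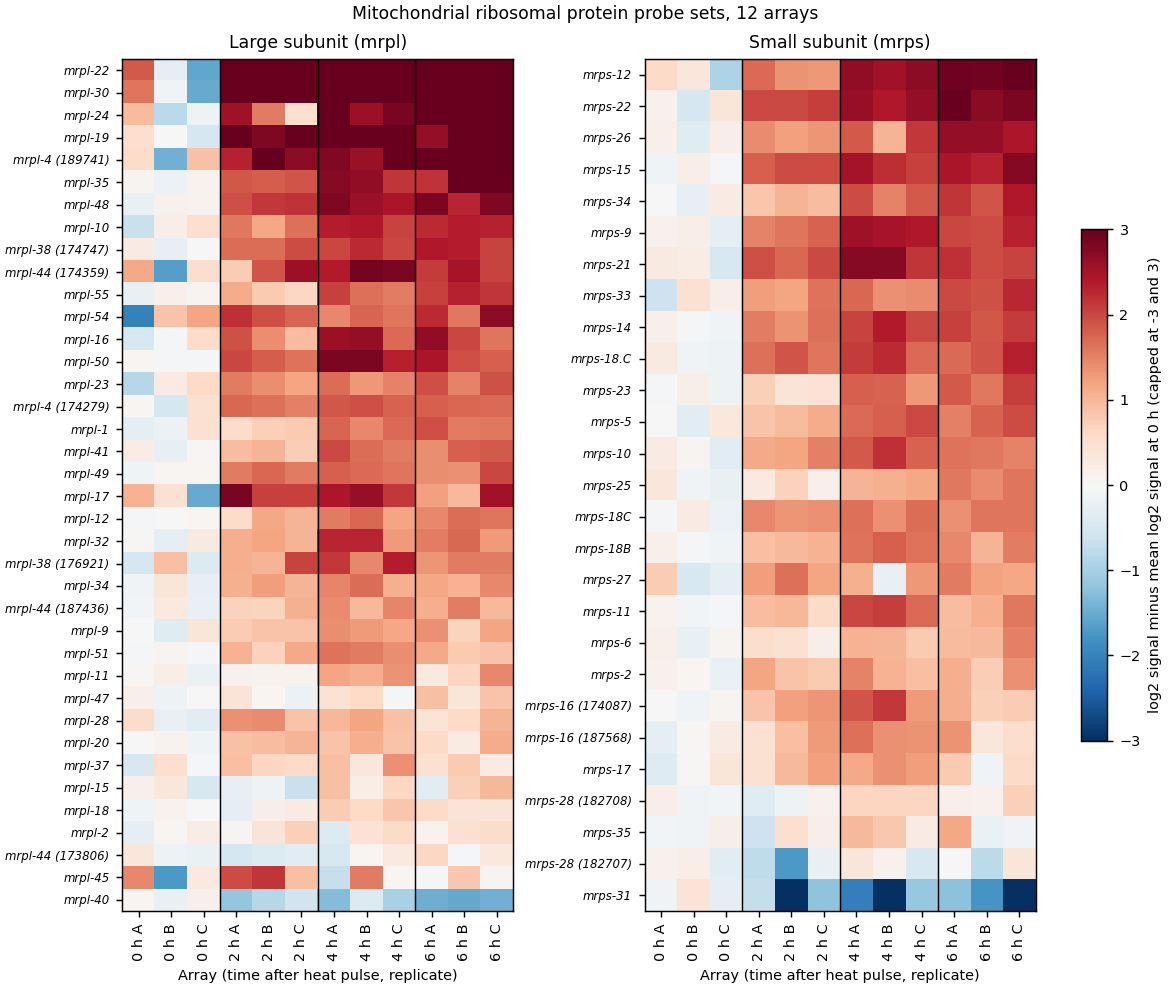
Log2 signal of each of the 65 mitochondrial ribosomal protein probe sets on each of the 12 arrays, as the difference from the mean log2 signal of its 0 h arrays (colours capped at -3 and 3), ordered by the change at 6 h. Most rows turn red by 2 h and stay red in both subunits, while *mrpl-40* and *mrps-31* at the bottom turn blue, and *mrpl-45* was too dim to be tested.

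The shift was visible on every array. The median log2 signal of the 64 probe sets was 8.59 to 8.62 at 0 h, 9.5 to 9.82 at 2 h, 10.07 to 10.23 at 4 h and 9.95 to 10.33 at 6 h. The 0 h, 2 h and 4 h arrays did not overlap, and the 4 h and 6 h arrays did. As signal, the array medians averaged 389.3 ± 3.9 (SD, n = 3), 795.9 ± 94.8, 1122 ± 70.2 and 1098 ± 162.5. Both subunits took part. At 6 h, 24 of 33 large subunit genes and 20 of 25 small subunit genes were raised, counting 1 probe set per gene, where 21.4% of all tested genes were. The median log2 changes were 1.59 and 1.57.

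The median rise was largest from 0 h to 2 h and went on to 4 h. At 4 h against 2 h, 14 of 64 probe sets were raised and 0 lowered, against 6.9% and 7.35% of all tested, with 30 raised and 0 lowered at an unadjusted p under 0.05. Among the 2842 tested probe sets of similar brightness, 12.5% were raised and 18.1% lowered, with a median log2 change of -0.13. The members' median log2 change was 0.58, beside 0.01 over all tested probe sets. For 35 of the 64 members all 3 arrays at 4 h lay above all 3 at 2 h (16% of all tested). Leaving out 1 array gave between 4 and 15 raised, with the fewest, 4, without 4 h replicate A, and with 8 without 4 h replicate B. With arrays scaled to one median 8 were raised (5.82% of all tested), and 3 without the variance trend and robust estimation of the limma fit (5.11% of all tested).

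Between 4 h and 6 h, 0 were raised and 2 were lowered, against 7.73% and 8.39% of all tested, with 1 and 6 at an unadjusted p under 0.05 in limma. Of the 2842 probe sets of similar brightness, 11.6% were raised and 19.3% lowered. The members' median was -0.10, beside 0.13 over all tested and -0.19 in those 2842. All 6 h arrays lay above all 4 h arrays for 6 of the 64 members and below them for 10. This held for 17.9% and 14.7% of all tested. The 2 lowered probe sets became 0 without 4 h replicate B, 1 without 6 h replicate B and 4 without 4 h replicate C. They became 7 with arrays scaled to one median, beside 12.6% of all tested, and 0 without the variance trend and robust estimation. Over the longer step from 2 h to 6 h, 12 were raised and 0 lowered, against 14.3% and 14.5%, with a median of 0.44 beside 0.16. The arrays of 28 did not overlap upward (23.4% of all tested). In the 2842 of similar brightness, 18.7% were raised and 33.2% lowered, with a median of -0.29. With arrays scaled to one median, 6 of the 64 were raised and 3 lowered from 2 h to 6 h, beside 10.4% and 19.8% of all tested. The members' median was then 0.06, beside -0.22 over all tested. The mean log2 signal was highest at 4 h for 34 of the 64 (53.1%, beside 17.5% of all tested), at 6 h for 23 (35.9%, beside 34.9%), at 2 h for 4 and at 0 h for 3.

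**Figure D2:**
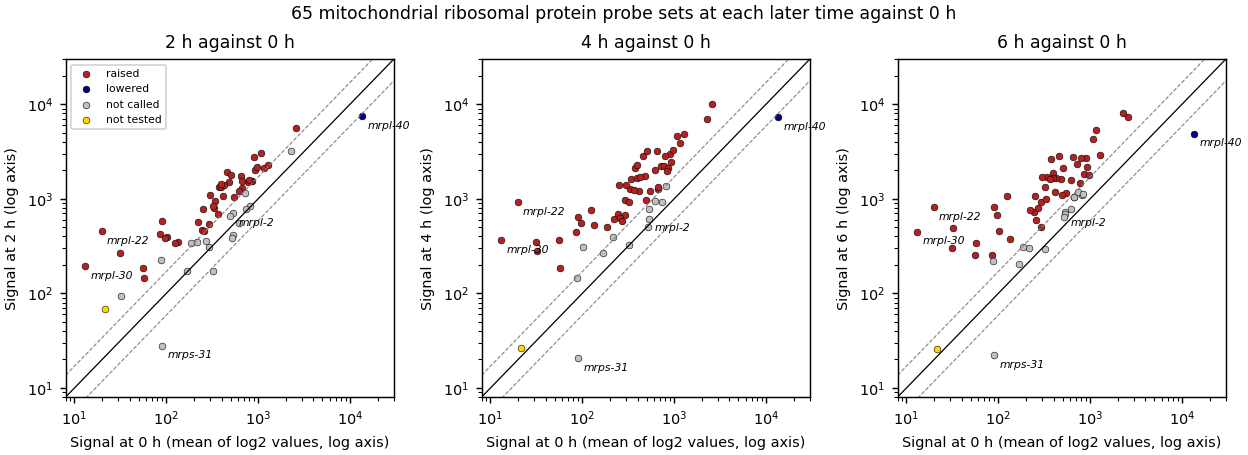
Signal of the 65 probe sets at 2, 4 and 6 h (vertical) against 0 h (horizontal), each the mean of 3 log2 values drawn on log axes, with the line of equality and dashed lines at 1.7-fold, and coloured by call. The cloud lies above the line at all 3 times, 45, 51 and 48 points are called raised, and *mrpl-40* at the right and *mrps-31* at the lower left lie below it.

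The largest fitted log2 changes at 6 h were in genes below the reference level on some or all 0 h arrays. Their folds are therefore lower bounds. The bounds alone do not place all of these genes first. Those of *mrpl-30* (6.47-fold) and *mrpl-19* (4.3-fold) at 6 h were under the 7.02-fold rise of *mrpl-35*, a gene well above that level. *mrpl-22* (183614_at), whose bacterial counterpart lines the tunnel through which the new protein leaves, had signals of 71.3, 16 and 6.7 at 0 h. Its signals were 381, 521 and 465 at 2 h, 1026, 909 and 824 at 4 h and 600.2, 849.5 and 1047 at 6 h. The 3 later groups lay well above 0 h, and the 2 h arrays below those at 4 h. The rise was at least 6.43-fold at 2 h (limma adjusted p = 1.9e-05), at least 13-fold at 4 h (1.4e-06) and at least 11.6-fold at 6 h (log2 change 5.36, SE 0.59, adjusted p = 1.3e-06).

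Of other proteins known from bacteria to line the tunnel or its exit, *mrpl-4*, *mrpl-23* and *mrpl-24* were raised at 6 h. *mrpl-24* (183698_at) gave 62.4, 18.5 and 28.9 at 0 h, 186, 95.6 and 45.3 at 2 h, 515, 191 and 231 at 4 h and 441, 475 and 562 at 6 h. The 2 h arrays overlapped with 0 h and the 6 h arrays lay above all at 2 h, a rise of at least 4.56-fold from 2 h to 6 h (log2 change 2.40, SE 0.62, limma adjusted p = 0.0046). *mrpl-23* went from 122, 261 and 336 at 0 h to 839, 619 and 833 at 6 h, a 3.44-fold rise with no overlap (log2 change 1.78, adjusted p = 1.2e-04). *mrpl-4* rose on both of its probe sets, 3.35-fold on 174279_s_at (adjusted p = 2.6e-06) and at least 7.09-fold on 189741_at (adjusted p = 8.6e-06) at 6 h. *mrpl-47*, whose bacterial counterpart lies at the tunnel exit, read 815, 653 and 732 at 0 h and 1359, 939.5 and 1315 at 6 h, 1.63-fold higher with no overlap but under the fold required (limma adjusted p = 0.028). *mrpl-17*, also at the exit in bacteria, read 176, 116 and 29.8 at 0 h and 201, 167 and 489 at 6 h, groups that overlapped. Its call at 6 h (at least 2.25-fold, adjusted p = 0.026) was lost without 0 h replicate C or 6 h replicate C, with median or quantile scaling and without the variance trend and robust estimation.

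*mrpl-30* and *mrpl-19*, both with counterparts in the bacterial large subunit, were likewise dim at 0 h. *mrpl-30* (184167_s_at) read 39.9, 12 and 4.6 at 0 h, 186, 194 and 202 at 2 h and 276, 506 and 656 at 6 h, at least 6.47-fold higher at 6 h (log2 change 5.12, SE 0.65, limma adjusted p = 1.6e-06). *mrpl-19* (176239_s_at) read 45, 31.8 and 22.2 at 0 h, 256, 219.7 and 337 at 2 h and 198, 317 and 441 at 6 h, at least 4.34-fold higher (log2 change 3.25, SE 0.47, adjusted p = 7.4e-06). In both genes all 0 h arrays lay below the reference level and all later arrays above it. The fitted log2 changes of such dim genes are larger than their bounds because signals far below the reference level enter them.

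Among genes well above the reference level at 0 h, *mrpl-35* had the largest rise at 6 h. Its signals (177394_at) were 393, 327 and 399 at 0 h, 1359.5, 1309 and 1367 at 2 h, 2448, 2332 and 1647 at 4 h and 1681, 3098 and 3410.4 at 6 h. The 2 h arrays agreed closely and lay above all at 0 h, while the 6 h arrays were more spread, with replicate A lowest. The change was 3.62-fold at 2 h (adjusted p = 7.3e-06) and 7.02-fold at 6 h (log2 change 2.81, SE 0.25, adjusted p = 9.2e-09).

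*mrpl-48*, a protein of the mitochondrial large subunit with no bacterial counterpart, rose mostly by 2 h. It read 391, 499.7 and 494 at 0 h and 1766, 2009 and 2046 at 2 h, a 4.22-fold rise (log2 change 2.08, SE 0.21, limma adjusted p = 1.4e-07). At 4 h it read 3216, 2774 and 2493 and at 6 h 3238, 2226 and 3196, arrays that overlapped each other and lay above all at 2 h (4 h against 2 h, log2 change 0.54, adjusted p = 0.094). *mrps-15*, whose bacterial counterpart binds the small subunit RNA early in assembly, rose 3.75-fold at 2 h and 5.68-fold at 6 h (adjusted p = 9.1e-07 and 7.4e-09).

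**Figure D3:**
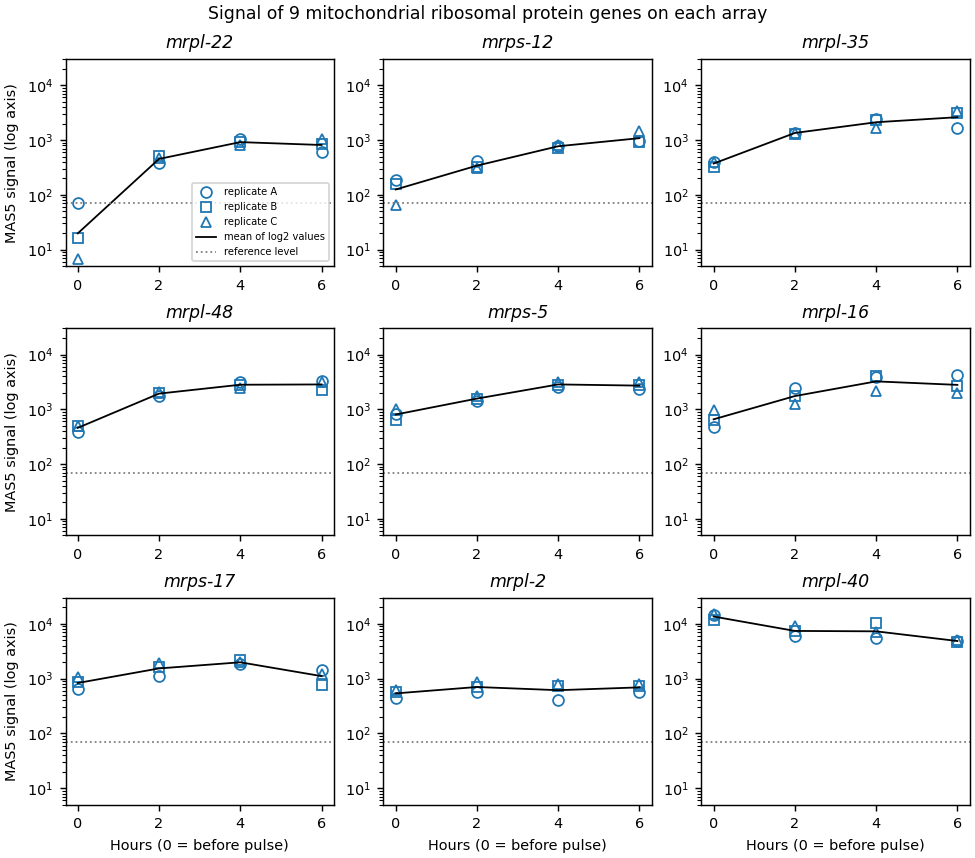
MAS5 signal (log axis) of 9 mitochondrial ribosomal protein genes on each array at 0, 2, 4 and 6 h, with a symbol for each replicate letter, a line through the means of log2 values and a dotted line at the reference level of 69.7. *mrpl-22* climbs from near or below the dotted line by 2 h, *mrps-12* is highest at 6 h and *mrps-17* falls back after 4 h. *mrpl-2* is not called at any time and *mrpl-40* descends.

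Around the centres where the ribosome works, the members did not move alike. *mrps-12*, whose bacterial counterpart sits at the decoding centre, had its highest signals at 6 h. Its signals (190280_at) were 186, 159 and 66.1 at 0 h, 407, 317 and 307 at 2 h, 789.7, 722 and 800.1 at 4 h and 943, 933 and 1434 at 6 h. No 2 groups overlapped, and the rise was at least 2.68-fold at 2 h and at least 8.5-fold at 6 h (log2 change 3.11, SE 0.34, limma adjusted p = 2.2e-07). From 2 h to 6 h it was 3.17-fold (adjusted p = 6.5e-04). The step from 4 h to 6 h was not called (log2 change 0.49, SE 0.34, limma adjusted p = 0.4). That from 2 h to 4 h was called (2.26-fold, adjusted p = 0.022). This call was lost without 2 h replicate B or C, without any 1 of the 4 h arrays, and without the variance trend and robust estimation.

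*mrpl-2*, whose bacterial counterpart lies close to the site of peptide bond formation, was not called at any time. It read 439, 563 and 631 at 0 h and 578, 733 and 786 at 6 h, groups that overlapped, with a log2 change of 0.37 (SE 0.29, limma adjusted p = 0.35). *mrpl-16*, which in bacteria also borders that centre, read 468, 626 and 969 at 0 h and 4168, 2621 and 1998 at 6 h, 4.25-fold higher (log2 change 2.09, SE 0.34, adjusted p = 1.2e-04).

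The stalks of the large subunit handle the translation factors and the outgoing tRNA. The 4 genes of these stalks were raised at both 4 h and 6 h, as were most members. Of the 58 member genes tested, 46 were raised at 4 h and 44 at 6 h, beside 17% and 21.4% of all tested genes. *mrpl-12*, the stalk protein that in bacteria recruits the factors, read 239, 243 and 259 at 0 h, 363, 553 and 499 at 2 h and 668, 786 and 753 at 6 h. The arrays at 2 h and 6 h did not overlap, and the rise at 6 h was 2.97-fold (log2 change 1.57, SE 0.26, limma adjusted p = 5.4e-05). *mrpl-10*, whose bacterial counterpart holds that of *mrpl-12* on the ribosome, rose 2.75-fold at 2 h and 4.95-fold at 6 h (limma adjusted p = 2.2e-04 and 3.6e-07).

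*mrpl-1*, the counterpart of the bacterial stalk protein beside the tRNA exit site, rose later. It read 596, 631 and 984 at 0 h, 1059.7, 1174 and 1231 at 2 h and 2397, 1955 and 2340.2 at 4 h. At 2 h it was 1.61-fold higher, under the fold required for a call (adjusted p = 0.025), and from 2 h to 4 h it rose 1.93-fold (log2 change 0.95, SE 0.22, adjusted p = 0.0046), a call lost without the variance trend and robust estimation. *mrpl-11*, from the base of the factor-binding stalk, read 295, 327 and 250.2 at 0 h, 316, 311 and 313 at 2 h, 659.9, 614 and 731 at 4 h and 352, 449 and 786 at 6 h. Its 0 h and 2 h arrays overlapped and its 4 h arrays lay above both, 2.13-fold over 2 h (adjusted p = 0.016), a call lost without 2 h replicate B, 4 h replicate A or 4 h replicate C, and without the variance trend and robust estimation. Its call at 6 h (1.73-fold, adjusted p = 0.045) was lost in 11 of the 12 fits with 1 array left out and with median or quantile scaling.

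Among small subunit genes, *mrps-5* is the member best known in *C. elegans*, where its knockdown induces the mitochondrial unfolded protein response and extends lifespan. It read 809, 636 and 1008 at 0 h, 1443, 1541 and 1746 at 2 h, 2605, 2778 and 3191 at 4 h and 2302, 2755 and 3134 at 6 h. The groups at 0, 2 and 4 h did not overlap and those at 4 h and 6 h did. The rise was 1.96-fold at 2 h (adjusted p = 0.0013, not called with quantile normalization, log2 change 0.75) and 3.37-fold at 6 h (log2 change 1.75, SE 0.21, limma adjusted p = 7.2e-07).

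Mammalian mitochondria have 3 relatives of the single bacterial protein S18, and 3 of the worm *mrps-18* genes have a probe set of their own. At 6 h, *mrps-18.C* was 3.93-fold, *mrps-18C* 2.87-fold and *mrps-18B* 2.53-fold higher than at 0 h (adjusted p = 4.7e-07, 6.4e-06 and 1.7e-05). All 3 had been raised by 2 h, at 3.29-fold, 2.61-fold and 1.96-fold, with no overlap between arrays, but with quantile normalization *mrps-18B* was not called at 2 h (log2 change 0.72). None was called between 2 h and 6 h, where their log2 changes were 0.26, 0.14 and 0.36 (SE 0.23, 0.22 and 0.20).

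Several small subunit genes rose mainly after 2 h. *mrps-23* read 2204, 2565 and 2036 at 0 h, 3723, 2965 and 3059.5 at 2 h, 7881, 7700.4 and 5527 at 4 h and 8044, 6768 and 9444 at 6 h. It was not called at 2 h (1.43-fold, adjusted p = 0.058) and rose 2.48-fold from 2 h to 6 h (log2 change 1.31, SE 0.20, limma adjusted p = 2.0e-05). *mrps-25* read 346, 253 and 233 at 0 h, 336, 438 and 303 at 2 h and 819.7, 726 and 836 at 6 h, with overlap at 2 h and a 2.23-fold rise from 2 h to 6 h (adjusted p = 0.0019). *mrps-34* rose at both steps, 1.91-fold from 0 h to 2 h and 2.32-fold from 2 h to 6 h (adjusted p = 0.0041 and 3.0e-04), as did *mrpl-55* of the large subunit, 1.79-fold and 2.53-fold (0.0031 and 1.9e-05). With quantile normalization neither was called at 2 h, and the 2 h call of *mrpl-55* was also lost without 0 h replicate A or 2 h replicate A.

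The mitochondrial ribosome of animals has many proteins with no counterpart in bacteria. By the human naming, 20 of the 59 genes belong there and 19 were tested, counting 1 probe set per gene. At 6 h, 13 of the 19 were raised and 1 was lowered, with a median log2 change of 1.67. Of the 39 other genes, 31 were raised and 0 lowered, with a median of 1.57. Among all tested genes, 21.4% were raised and 15.9% lowered at 6 h. At 2 h the counts were 11 raised and 1 lowered of 19, and 30 raised and 0 lowered of 39, with medians of 0.96 and 1.14. Among all tested genes, 15.6% were raised and 10.2% lowered at 2 h. *mrps-22*, *mrpl-48* and *mrps-26* had the largest fitted log2 changes of the first group at 6 h. *mrps-22* read 105, 67.5 and 123 at 0 h and 746, 626 and 672 at 6 h, at least 7.04-fold higher (log2 change 2.83, SE 0.30, limma adjusted p = 1.5e-07). *mrps-26* read 64.2, 45.3 and 66.4 at 0 h, 154, 135 and 144 at 2 h and 359.5, 362 and 312 at 6 h, at least 4.93-fold higher at 6 h (log2 change 2.57, SE 0.48, adjusted p = 1.7e-04). Its call at 2 h (adjusted p = 0.048) was lost in 11 of the 12 fits with 1 array left out and with median or quantile scaling. At 4 h *mrpl-50* had the largest change of this group, counting 1 probe set per gene, 6.33-fold (log2 change 2.66, SE 0.22, adjusted p = 4.9e-09).

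Not all members rose, and 1 fell. *mrpl-40* (179863_at), a large subunit protein with no bacterial counterpart, read 14229, 11673 and 15150.5 at 0 h. It read 6052, 7488 and 9052 at 2 h, 5488, 10200.3 and 6959 at 4 h and 4912, 4693 and 4987 at 6 h. All later arrays lay below all 0 h arrays, and the 6 h arrays lay below all others. The fall was 1.83-fold at 2 h (limma adjusted p = 0.0036), 1.86-fold at 4 h (0.0024) and 2.80-fold at 6 h (log2 change -1.48, SE 0.21, adjusted p = 7.8e-06). The call at 2 h was lost without 2 h replicate A, with quantile normalization (log2 change -0.70) and without the variance trend and robust estimation (adjusted p = 0.055), and the call at 4 h without 4 h replicate A. The call at 6 h was kept in every fit with 1 array left out.

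*mrps-31*, also with no bacterial counterpart, read 83.2, 120.1 and 73.0 at 0 h, 55.1, 10.1 and 39.2 at 2 h, 21.9, 9.9 and 40.9 at 4 h and 38.1, 26.4 and 11.0 at 6 h. Its 0 h arrays were the only ones above the reference level and lay above all later arrays. The log2 change at 6 h was -2.01 with an SE of 1.01, which did not pass the test (limma adjusted p = 0.13), and the fall is bounded only at 1.29-fold. *mrpl-45* (176185_at) was not tested, with signals of 57.9, 6.5 and 25.9 at 0 h and 20.7, 37.6 and 22.5 at 6 h.

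Against 0 h, 11 of the 64 tested probe sets were not called at any time. They were those of *mrpl-2*, *mrpl-15*, *mrpl-18*, *mrpl-37*, *mrpl-47*, *mrps-27*, *mrps-31* and *mrps-35*, both of *mrps-28* and 1 of *mrpl-44*. Missing the threshold does not show that these genes stayed level. *mrps-27* was at least 2.40-fold higher at 6 h (log2 change 1.31, SE 0.52, limma adjusted p = 0.052) and *mrpl-37* 1.41-fold higher (log2 change 0.50, SE 0.36, adjusted p = 0.30). *mrpl-18* read 748, 869 and 826 at 0 h and 1372, 1233 and 1457 at 4 h, with no overlap and an adjusted p of 0.011, but its 1.66-fold rise was under the fold required. *mrps-35* read 159.9, 157 and 190.5 at 0 h and 376, 148 and 158 at 6 h, overlapping, with replicate A alone above the 0 h arrays.

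A further group was raised early and not at 6 h. *mrps-17*, whose bacterial counterpart binds small subunit RNA, read 635, 856 and 1063 at 0 h, 1139, 1642 and 1941 at 2 h, 1831, 2146 and 2000.0 at 4 h and 1438, 772 and 1239 at 6 h. It was 2.39-fold up at 4 h (adjusted p = 7.4e-04) and 1.79-fold down from 4 h to 6 h (log2 change -0.84, SE 0.26, limma adjusted p = 0.030), a call lost without any 1 of the 4 h arrays, without 6 h replicate B, and without the variance trend and robust estimation. *mrpl-20* and *mrpl-28*, with counterparts in the bacterial large subunit, were raised 1.93-fold and 2.33-fold at 2 h (*mrpl-20* not with quantile normalization) and were 1.56-fold and 1.59-fold above 0 h at 6 h, under the fold required.

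Where a gene had several probe sets, they did not always agree. *mrpl-44*, which resembles ribonuclease III, has 3. Probe set 173806_s_at read 663, 469 and 452 at 0 h and 803, 499 and 646 at 6 h and was not called (log2 change 0.29, SE 0.29). Probe set 187436_s_at read 246, 318 and 221 and 551, 747 and 504, a 2.29-fold rise (adjusted p = 0.0017), and 174359_at was raised at least 2.92-fold (adjusted p = 0.0061). At 2 h all arrays of 173806_s_at lay below those at 0 h (log2 change -0.43, not called). There 187436_s_at and 174359_at were called raised (log2 changes 0.82 and 1.73), calls lost in 5 and 6 of the 12 fits with 1 array left out.

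For *mrps-16*, 174087_s_at read 985, 919 and 1047 at 0 h, 3608, 4242 and 2382 at 4 h and 2076, 1624 and 1658 at 6 h. It was 3.38-fold up at 4 h and 1.87-fold down from 4 h to 6 h (limma adjusted p = 0.0062), a fall not called without 4 h replicate B or without the variance trend and robust estimation. The other *mrps-16* probe set, 187568_at, changed by 1.46 on the log2 scale at 4 h (adjusted p = 0.0025) and by 0.74 at 6 h (adjusted p = 0.11). Both *mrpl-38* probe sets were raised at every time against 0 h (176921_at at 2 h not without 0 h replicate A, 0 h replicate C or 2 h replicate C), and neither *mrps-28* probe set was called against 0 h.

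Cytoplasmic ribosomes make the proteins that are imported, and their 75 protein genes (names in *rpl-*, *rps-* or *rla-*) were set beside the members, with 1 probe set per gene. At 2 h against 0 h, 7 were raised and 2 lowered, where 15.5% and 9.55% of all tested probe sets were, with a median log2 change of 0.15. At 4 h against 2 h, 30 were raised and 0 lowered, beside 6.9% and 7.35% of all tested. At 6 h against 4 h, 14 were raised and 0 lowered, beside 7.73% and 8.39%. At 6 h against 0 h, 59 were raised and 1 lowered, beside 21.7% and 15.6% of all tested. The median was 1.43, beside the 1.58 of the mitochondrial ribosomal probe sets. With quantile normalization 44 were raised at 6 h (18.5% of all tested) and these medians were 0.83 and 1.48. *rps-7*, of the small subunit, went from 1653 ± 216.2 at 0 h to 2976 ± 554.3 at 2 h and 9854 ± 670.3 at 6 h (SD, n = 3). The early difference between the lists shrank under quantile normalization, where 22 of the 75 were raised at 2 h and 2 from 2 h to 4 h, beside 29 of the 64 mitochondrial ribosomal probe sets at 2 h. With that normalization, 13.3% of all tested probe sets were raised at 2 h and 6.56% from 2 h to 4 h. On the deposited signals, the count of the 75 raised at 2 h was 4 without 0 h replicate A and 3 without 2 h replicate C. That from 2 h to 4 h was 16 without 4 h replicate A, 16 without 4 h replicate B and 57 without 4 h replicate C, and that from 4 h to 6 h was 29 without 4 h replicate B, 9 without 4 h replicate C and 24 without 6 h replicate C. No test between the lists was made.

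The products of mitochondrial translation join nuclear subunits in the respiratory chain and ATP synthase. Of 40 genes named as such subunits or as assembly factors of cytochrome c oxidase, 6 were raised and 10 lowered at 2 h, with a median log2 change of -0.34. The 6 raised, 15% of the list, are near the 15.5% of all tested probe sets, and the 10 lowered, 25%, stand beside 9.55%. From 2 h to 4 h, 22 were raised (14 without 4 h replicate B) and 1 lowered, beside 6.9% and 7.35% of all tested. The median was 0.80. At 6 h against 0 h, 11 were raised and 5 lowered (27.5% and 12.5% of the list, beside 21.7% and 15.6% of all tested). The median there was 0.26. With arrays scaled to one median it was -0.10, with 6 raised and 8 lowered, beside 16.8% and 19.4% of all tested. The largest rises at 6 h were in the assembly genes *cox-17* (at least 3.05-fold) and *cox-15* (4.12-fold, adjusted p = 3.6e-05). The largest falls were in *cyc-2.2*, which encodes a cytochrome c (at least 5.64-fold), and *ucr-2.3*, of complex III (10.4-fold, adjusted p = 0.0036).

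**Figure D4:**
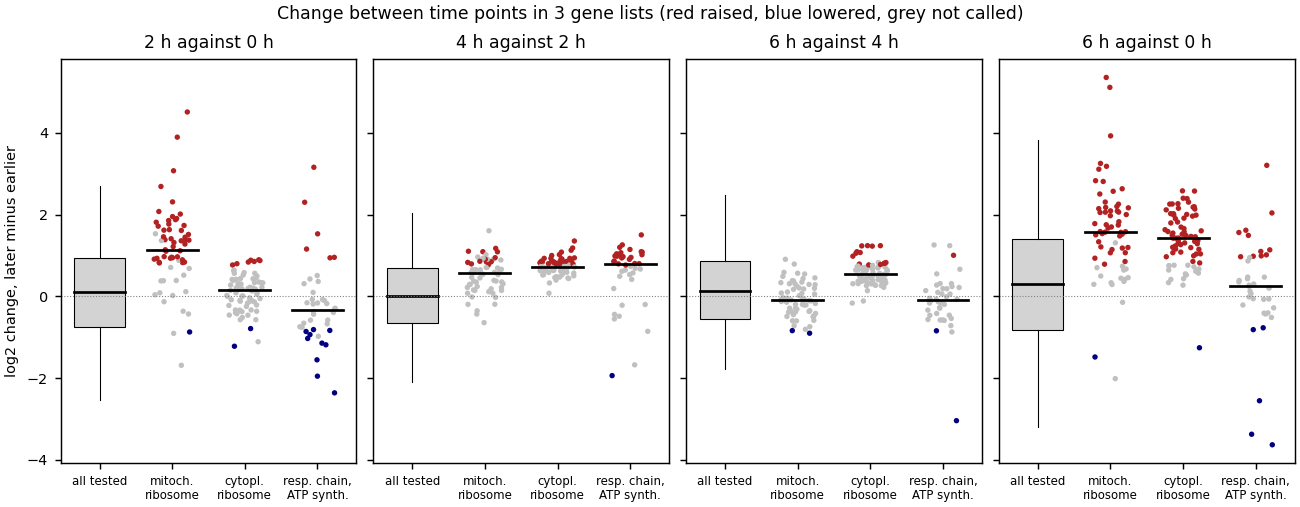
Log2 change in 4 comparisons for all 18264 tested probe sets (box from the first to the third quartile, whiskers from the 5th to the 95th percentile), the mitochondrial ribosomal protein probe sets, and the cytoplasmic ribosomal and respiratory chain genes (1 point each, red raised, blue lowered, grey not called, bar at the median). At 2 h the mitochondrial ribosomal median is 1.13 and the others are 0.15 and -0.34, and at 6 h against 0 h the first 2 are 1.58 and 1.43.

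The rest of the mitochondrial expression machinery rose in part. Of 22 translation factors and tRNA synthetases listed, 16 were tested, and 7 were raised and 1 lowered at 6 h, where 21.7% and 15.6% of all tested probe sets were. The synthetase genes *ears-2* (at least 8.16-fold, limma adjusted p = 6.5e-08), *fars-2* (at least 3.96-fold, 0.0054) and *mars-2* (at least 4.95-fold, 3.8e-05) rose most, and *rars-2* fell 2.03-fold (0.037), a call lost without any 1 of the 0 h arrays or without 6 h replicate B or C. With arrays scaled to one median, 4 of the 16 were raised and 1 lowered, beside 16.8% and 19.4% of all tested. Of 5 tested genes for upkeep and transcription of the mitochondrial genome, 4 were raised at 6 h. Among them, *rpom-1*, the mitochondrial RNA polymerase, was at least 5.77-fold higher (adjusted p = 8.8e-05), and *polg-1*, the mitochondrial DNA polymerase, 5.01-fold higher (1.5e-06). *mma-1*, a relative of mammalian LRPPRC, was at least 4.32-fold higher (5.9e-04).

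Among 22 genes for protein import, chaperones and proteases, 13 were raised and 1 lowered at 6 h, beside 21.7% and 15.6% of all tested, and 9 and 1 with arrays scaled to one median, beside 16.8% and 19.4%. *tomm-7*, of the outer membrane import pore, went from 1867 ± 518.4 at 0 h to 12250 ± 1498 at 6 h (SD, n = 3), 6.69-fold (limma adjusted p = 1.1e-09). *tin-9.1*, an intermembrane space chaperone, rose 4.64-fold (2.2e-07). *spg-7*, the protease whose relatives in yeast and mouse mature the ribosomal protein encoded in the worm by *mrpl-32*, was at least 2.80-fold higher (0.028), a call lost without 0 h replicate B, 6 h replicate A or 6 h replicate B. *mrpl-32* itself read 2667, 2134 and 3126 at 0 h and 7524, 8601 and 6287 at 6 h, with no overlap and a 2.84-fold rise (adjusted p = 2.5e-05). The protease gene *clpp-1* fell 2.89-fold (1.7e-05).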

How the data were processed

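RNA of early embryos was measured on 12 Affymetrix *C. elegans* arrays, 3 at each of 0, 2, 4 and 6 h, with groups taken from the sample descriptions. The deposited values are intensity on a linear scale, computed by the authors with MAS5. Each array has a trimmed mean (2% off each end) of 500.2 to 500.3, so a change is relative to the array's total. The number of arrays limits the precision. Genes came from the platform annotation (20766 probe sets with 1 gene, 887 with several, 895 with none). The 77 control probe sets were left out, as were those not above 69.7 (each array's 40th percentile, as the median of 12) in at least 3 arrays, leaving 18264 (81%).

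One limma 3.58.1 model took the log2 signals of the 12 arrays by time point (R 4.3.3, with data.table version 1.17.8), with a variance trend and robust estimation, after a check on simulated data. P values were adjusted by Benjamini and Hochberg over all tested probe sets of each of 6 contrasts. Folds are ratios of geometric means, taken from the difference between means of log2 values. Where an array of the dimmer group was at or below 69.7, that group was raised to it and the fold is a lower bound. Alternatives were median and quantile scaling, no filter and a stricter filter (60th percentile), a floor at 69.7, a fit with no trend, a replicate block, adjusted p alone, 1 probe set per gene (the brightest) and each array left out. Named were the 8 largest calls in each direction, genes whose probe sets disagree, the 5 brightest and dimmest members, untested members, members with known roles and up to 3 genes from each list. The other genes named were chosen after their values were seen. Members and lists were chosen with earlier results of these data known. Sequences were not used here.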

Additional observations from a re-analysis of the deposited data

Results flagged for a closer look

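Of the 12 further genes with a mitochondrial ribosomal symbol, 2 are covered by a probe set that the annotation gives to 2 genes, so their signals are outside the comparisons above. The probe set shared by *mrpl-58*, whose human relative releases stalled peptides, and *osg-1* read 2305 ± 262.4 (SD, n = 3) at 0 h and 6788 ± 1235 at 6 h. Its log2 change at 6 h was 1.55 (2.93-fold, limma adjusted p = 6.5e-06). The probe set shared by *mrpl-13* and *F13G3.7* read 325.3 ± 29.7 at 0 h and 956 ± 91.9 at 6 h, with the same log2 change of 1.55 (2.94-fold, adjusted p = 1.0e-05). Which gene of each pair gave the signal was not tested.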

How the results depend on the processing

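Setting each count or median beside its value under an alternative, 344 stayed within 1.5 times the count or within 0.14, the SD of the array medians, and 22 moved. None of the members' medians changed sign. With arrays scaled to one median, the median log2 change of the members at 6 h against 0 h was 1.22, that at 6 h against 4 h -0.39 with 7 lowered, and that at 6 h against 2 h 0.06 with 6 raised and 3 lowered, while 8 were raised at 4 h against 2 h. This scaling moved the median of all tested probe sets at 6 h against 0 h from 0.31 to -0.05, and the share of raised among all calls from 58.1% to 46.5% (at 6 h against 4 h from 48% to 30.8%, at 6 h against 2 h from 49.7% to 34.3%). The members' median above that of all probe sets was 1.26 either way. This scaling moves all probe sets of an array equally, so that value could not change. Quantile normalization gave 29 raised, 0 lowered and a median of 0.97 at 2 h against 0 h. Without the trend and robust estimation, 0 were lowered at 2 h against 0 h, 3 were raised at 4 h against 2 h and 0 lowered at 6 h against 4 h. On adjusted p alone, 4 were lowered at 6 h against 4 h and 1 at 6 h against 2 h. The cause of these moves was not tested.

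With 1 array left out, members raised against 0 h ranged from 38 to 45 at 2 h, 50 to 54 at 4 h and 46 to 50 at 6 h, and members lowered from 0 to 1, 0 to 1 and 1 to 1. Raised counts were 4 to 15 at 4 h against 2 h and 8 to 14 at 6 h against 2 h, and lowered counts 0 to 4 at 6 h against 4 h. Calls kept in every alternative numbered 28 of 46 at 2 h, 50 of 52 at 4 h and 43 of 49 at 6 h against 0 h, 2 of 14 at 4 h against 2 h, 0 of 2 at 6 h against 4 h and 6 of 12 at 6 h against 2 h. The replicate letters did not pair the samples, as the deviations of the 18 pairs with the same letter correlated between -0.03 and 0.03. With the letter as a replicate block, 43, 51 and 47 members were raised at 2, 4 and 6 h against 0 h, 13 at 4 h against 2 h and 11 at 6 h against 2 h. The sources call the samples independent without saying how they were collected, so p values measure only the spread between these samples.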
